A study of Mus musculus with 4 samples.

Results

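Pericytes were examined in 4 coronal sections that included the mouse striatum, by MERFISH, an assay that counts single mRNA molecules of a chosen gene panel in intact tissue. A segmented cell with at least 10 detected genes and a volume of at least 50 µm³ was taken as a pericyte when at least 2 of Pdgfrb, Vtn and Rgs5 had at least 2 counts and the 3 genes together made up at least 4% of its transcripts. Their sum also had to exceed that of the smooth muscle genes Acta2 and Myl9, and that of the endothelial genes Cldn5, Itm2a, Adgrl4 and Abcb1a. This gave 6539 pericytes among 281824 kept cells, with 1749 and 1666 in the sections Young 1 and Young 2, and 1465 and 1659 in Aged 1 and Aged 2. Of these, 1084, 1194, 1033 and 1114 in that order lay outside both the striatal and the white matter zone defined below. They are included in the results unless a zone is named. Young sections were labelled as 2 months of age and aged sections as 18 months, with 2 sections at each age and a panel of 383 genes. All were bilateral slices, and their labels name no treatment, strain, sex or genotype. The numbering of the young sections follows their titles, since labels inside those data carry other numbers. The labels do not name the animal of each section, though the study describes its replicates as biological and its MERFISH samples as mice, and p-values below measure the spread between these sections.

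Pericytes are mural cells that sit in the basement membrane of capillaries and wrap the endothelial tube. Endothelial cells secrete PDGF-B, which binds the receptor PDGFRβ on pericytes and keeps them on the vessel wall. In the brain they are known for their part in the blood-brain barrier, in capillary tone and in the making of the vascular basement membrane, while smooth muscle cells, rich in contractile proteins, cover arteries and arterioles.

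The aged section Aged 1 was the shallowest. Its pericytes held a median of 206 transcripts, against 314 in Young 1, 307 in Young 2 and 263 in Aged 2, and all kept cells ranked the same way with medians of 215, 400, 325 and 293. Pericyte volume did not follow this order, with medians of 689 and 714 µm³ at 2 months and 730 and 668 µm³ at 18 months. Levels are given below as transcripts per 10000 of all panel transcripts summed over the pericytes of a section, which sets aside total depth. In such sums, fewer cells with a transcript and less RNA per cell cannot be told apart. No cell identifier was shared between sections.

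The 3 genes that chose the cells are described without a test. Vtn encodes vitronectin, an adhesive matrix protein, and had at least 2 counts in 95.7% and 95.8% of young against 97.6% and 95.8% of aged pericytes. Rgs5, a regulator of G protein signalling, reached 2 counts in 98.2%, 99.5%, 99.2% and 99.3% of pericytes in Young 1, Young 2, Aged 1 and Aged 2. Pdgfrb, the PDGF-B receptor, did so in 81.4% and 75.7% of young pericytes, in 48.6% in Aged 1 and in 72.8% in Aged 2. Its level was 159 and 131 per 10000 in the young and 84.6 and 130 in the aged sections, so the low value was that of Aged 1 alone. Across the 4 sections the mean level in pericytes was 184-fold that in all other cells for Vtn, 51.2-fold for Rgs5 and 45.2-fold for Pdgfrb, where other cells exclude endothelial and smooth muscle cells. In the genome build GRCm38, Vtn lies on chromosome 11 at 78499091-78502324 (plus strand), and Rgs5 on chromosome 1 at 169655501-169695813 (plus strand). Its relative Rgs4 lies nearby on the minus strand, at 169741477-169747642. Between 63 and 93 cells per section just missed the 4% threshold with a share of 3 to 4%, and 72 to 112 pericytes passed it with 4 to 5%. In Young 1 the mean Vtn count was 5.27 per cell just outside and 7.17 just inside, against 20.4 in pericytes whose share exceeded 20%.

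Genes that the rule did not use also marked these cells. The pericyte level of Itga1, an integrin subunit that binds collagen, was 106 and 109 per 10000 in young against 95.1 and 86.0 in aged sections, a mean of 49.9-fold that in other cells. Ano1, a calcium-activated chloride channel of contractile cells, stood at 73.3 and 77.6 in young against 109 and 87.2 in aged sections, 43.0-fold the level of other cells. Cald1, which encodes the actin-binding protein caldesmon, reached 125, 133, 119 and 146 per 10000, 32.4-fold the other cells. These 3 genes were thus far above other cells in each section, and the order of ages was not shared among them. The next genes by fold were Cp (ceruloplasmin, a copper-carrying ferroxidase), at 20.2-fold, Adgrf5 at 17.4-fold, Esam at 16.9-fold and Mgp (matrix Gla protein) at 15.6-fold. They were followed by Slfn5, Cyyr1, Itih5, Nostrin, Tm4sf1, Pltp, Ahnak and Fn1 at 13.7- to 11.6-fold.

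**Figure D1:**
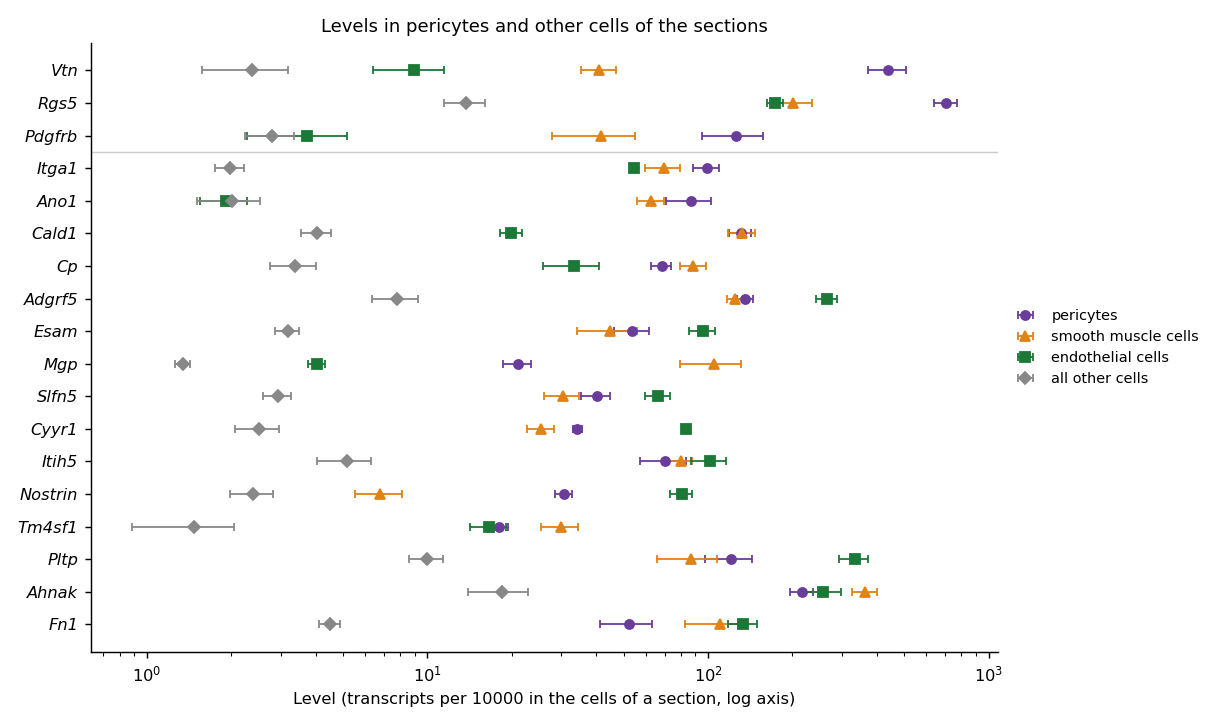
Level of each gene (x axis, transcripts per 10000, log axis) in pericytes, smooth muscle cells, endothelial cells and all other cells. Points are means and bars the SD over 4 sections, and the genes above the grey line chose the cells. Ano1 lies at 86.7 in pericytes and 1.92 in endothelial cells, whereas Adgrf5, Esam, Cyyr1, Nostrin and Pltp are higher in endothelial cells than in pericytes.

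Many of these genes are shared with neighbouring vascular cells. Adgrf5, an adhesion receptor of endothelium, was at 136 ± 9.29 per 10000 in pericytes and 265 ± 22.7 in endothelial cells (SD, n = 4 sections). Nostrin, which binds endothelial nitric oxide synthase, was at 30.6 ± 2.13 and 80.6 ± 7.22. Endothelial markers were widespread inside the segmented pericytes, since 65.5% and 62.1% of young against 46.2% and 55.3% of aged pericytes had at least 3 of 21 markers at 2 or more counts. That share rests on raw counts and had the same order across sections as depth. The summed level of the 21 markers was 879 and 786 per 10000 in young against 733 and 742 in aged pericytes, with all 21 above 0 in each section. The 8 astrocyte markers summed to 259 to 305 per 10000, the 6 neuron markers to 201 to 267 and the 11 microglia and macrophage markers to 84.8 to 103, again with none at 0. In all other cells these 3 lists summed to 219 to 264, 1519 to 1782 and 72.8 to 81.9 per 10000. The defining markers of pericytes were thus present, and the segmented outlines also held transcripts of genes known as markers of other classes. The source of those transcripts was not tested.

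The cells were next set against endothelial cells, chosen by the mirror image of the rule, 9831 in all. Because the rule itself contrasts these classes, the comparison is a description. Ano1 was higher in pericytes by 5.20 on the log2 scale, Rgs4 by 3.06, Ddit4l by 2.89, Hspa2 by 2.56, Cald1 by 2.42 and Nbl1 by 2.35. Rgs4 encodes a brake on G protein signalling and was at 177 ± 27.9 per 10000 in pericytes, 17.3 ± 3.89 in endothelial cells and 178 in smooth muscle cells. The neuron-enriched noncoding RNAs Snhg11 and Meg3 belonged to the same leading group. Genes lower in pericytes were led by Ctla2a, with a log2 difference of -2.35, Paqr5 (-2.25), the monocarboxylate carrier Slc16a4 (-2.22), the retinol-binding protein receptor Stra6 (-2.15) and Tnfsf10 (-2.13). Slco1c1, a thyroid hormone carrier of the blood-brain barrier (-2.04), and the endothelial transcription factors Sox18 (-2.02) and Klf2 (-1.99) followed. In all, 130 genes were past the threshold as higher and 132 as lower, 33.9% and 34.5% of the 383 genes tested. These counts include genes of the rule, and of the 374 genes outside it 125 were higher and 128 lower.

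Among the PDGF genes, Pdgfb, the ligand of PDGFRβ, was lower in pericytes than in endothelial cells. It was at 24.8 and 19.8 per 10000 in young against 12.4 and 19.3 in aged pericytes, and at 65.0 and 50.1 per 10000 in young against 42.5 and 66.9 in aged endothelial cells. Pdgfa, the ligand of the other receptor, was higher in pericytes (log2 difference 0.99), as was its receptor Pdgfra (1.43). Pdgfra is also a marker of oligodendrocyte precursors, of which 1 of 5 was higher and 0 lower. Higher too were 10 of 11 microglia and macrophage, 5 of 6 oligodendrocyte and 3 of 5 fibroblast markers, against 125 of 374 genes outside the rule. Lower were 0, 1 and 1 of these lists. The part of such cells in the PDGF values was not tested. Of 10 contractile and cytoskeletal genes outside the rule, 3 were higher and 3 lower in pericytes than in endothelial cells. The higher were Ano1, Cald1 and Cnn2 (0.92), and the lower were Vim (-0.77), Synm (-0.85) and Sorbs2 (-0.73). Of 17 genes of basement membrane, matrix and proteases, 4 were higher and 8 lower. Mgp (2.08) and Itga1 (0.55) were among the higher, while Fn1, encoding fibronectin (-1.66), Vwa1, a basement membrane protein (-1.96), and the laminin receptor subunit Itga6 (-1.84) were among the lower. Col4a2, a collagen IV chain of the vascular basement membrane, did not pass, at 12.2 per 10000 in pericytes and 11.0 in endothelial cells (adjusted p = 0.0989, edgeR quasi-likelihood test with Benjamini-Hochberg adjustment).

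A small share of pericytes carried Acta2, the smooth muscle actin gene, at 2 or more counts. They numbered 243 and 214 in young against 128 and 190 in aged sections, or 13.9%, 12.8%, 8.74% and 11.5% of pericytes. They were also deeper, with a median of 463 transcripts against 294 in Young 1 and of 283 against 200 in Aged 1, and across sections their share had the same order as depth. Compared with pericytes without Acta2, their level of Ano1 was 2.14-fold, of Myl9 1.55-fold and of Mgp 1.67-fold, whereas Vtn was 0.398-fold, Ddit4l 0.456-fold and Rgs4 0.618-fold. The largest folds besides that of Acta2 were those of the fibroblast marker Inmt, at 8.81, Cd74, the MHC class II invariant chain, at 5.80, the scavenger receptor Mrc1 of perivascular macrophages, at 5.79, and the arterial kinase gene Bmx, at 5.54. The fold of Cd74 varied most of these 4 genes between sections, from 2.06 to 13.6. These values describe a split made on the same counts, and no test was run on them.

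Where pericytes lay was read next, from positions that the rule did not use. The endothelial cells were chosen by the mirror rule, and pericyte outlines also held transcripts of endothelial markers. Nearness to endothelium is thus not independent of how the cells were chosen. In Young 1, 15.8% of pericytes had the centre of an endothelial cell within 20 µm, against 8.24% of all other cells. The shares were 11.9% against 6.89% in Young 2, 9.76% against 5.18% in Aged 1 and 10.6% against 5.71% in Aged 2. Pericytes thus had a near endothelial neighbour more often than other cells in 4 of 4 sections, 12.04% ± 2.69 against 6.50% ± 1.36 (SD, n = 4; two-sided exact permutation test within sections, p = 0.125, the smallest that 4 sections allow). The median distance to the nearest endothelial cell did not separate them, at 60.0 ± 4.62 µm for pericytes and 61.5 ± 6.96 µm for other cells, with pericytes farther in 2 of 4 sections (exact p = 0.5). For smooth muscle cells it was 82.2 ± 7.11 µm, longer than for pericytes in 4 of 4 sections (exact p = 0.125).

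**Figure D2:**
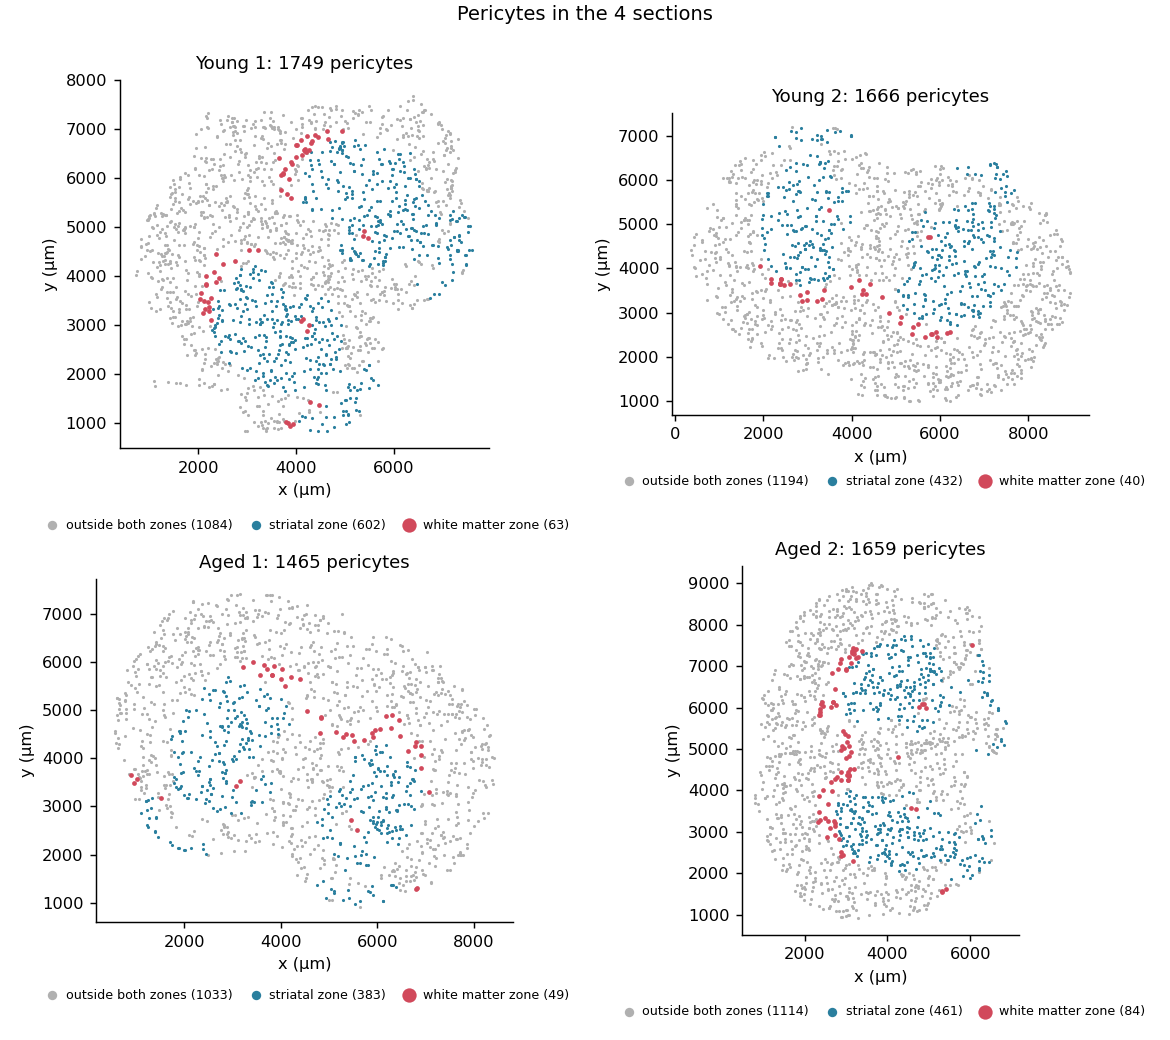
Position of every pericyte (x and y in µm within a section) in the 4 sections, coloured by the cells around it. The striatal zone holds 383 to 602 pericytes per section and the white matter zone 40 to 84, mostly along a band at the edge of the striatal zone. Another 1033 to 1194 per section lie outside both zones.

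Pericyte numbers were next compared between ages. Pericytes made up 2.57% and 2.35% of kept cells in the young and 2.14% and 2.22% in the aged sections. The counting intervals (95%, Wilson, counting error only) were 2.46 to 2.69%, 2.24 to 2.47%, 2.04 to 2.25% and 2.12 to 2.33%. Both aged sections were below both young ones, with means of 2.46% ± 0.154 and 2.18% ± 0.0578 (SD, n = 2 per age; two-sided exact permutation test, p = 0.333, the smallest this design allows). Per area, 51.6 and 41.6 pericytes per mm² in young against 39.1 and 42.7 in aged sections overlapped (exact p = 0.667). Within the striatal zone, shares overlapped as well, at 2.14% and 1.93% in young against 1.87% and 2.06% in aged sections (exact p = 0.667). With every cell thinned to 150 transcripts, which left out 13429, 17920, 24273 and 20034 shallower cells, the shares were 2.39% and 2.25% against 2.01% and 2.00%.

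Endothelial cells, as called by the mirror rule, were fewer per pericyte in the aged sections. They made up 4.14% and 4.02% of kept cells in young against 2.77% and 3.04% in aged sections. Itm2a, a gene of that rule, averaged 0.333 and 0.367 counts per other cell in young against 0.207 and 0.226 in aged sections. The other genes of that rule overlapped between the ages. Cldn5 was at 0.108 and 0.0651 in young against 0.0420 and 0.0817 in aged sections. Abcb1a was at 0.281 and 0.209 against 0.155 and 0.220, and Adgrl4 at 0.155 and 0.120 against 0.117 and 0.157. These counts are not corrected for depth. Whether fewer calls reflect fewer cells or a lower level of a calling gene was not tested. The ratio was 1.61 and 1.71 in young against 1.30 and 1.37 in aged sections, again without overlap (exact p = 0.333), and 1.63 and 1.66 against 1.30 and 1.44 after thinning. It reversed when all 3 pericyte markers were required, a rule met by 45.5% of pericytes in Aged 1 and 67.9% to 75.3% in the other sections (2.14 and 2.40 against 2.85 and 2.02, exact p = 1). The nearest endothelial cell lay at a median of 54.3 and 58.5 µm from a young pericyte and 65.0 and 62.1 µm from an aged one, also without overlap (exact p = 0.333). All other cells shifted the same way, from 53.7 and 58.1 µm to 69.3 and 65.0 µm, so the longer distance was not particular to pericytes.

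**Figure D3:**
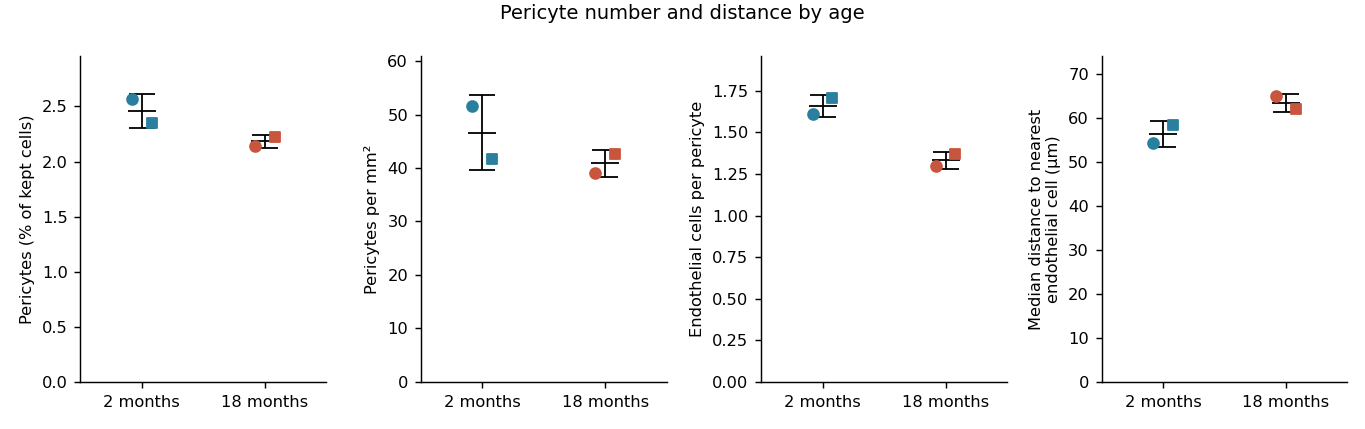
Share of kept cells, density, endothelial cells per pericyte and median distance to the nearest endothelial cell, by age. Each point is a section (circles: section 1, squares: section 2), with the mean and SD in black and all axes starting at 0. The ages overlap in density and are apart in the other 3 measures.

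Few genes changed with age inside pericytes. Of 382 genes tested over the 4 sections, 5 rose (1.31%) and 6 fell (1.57%) from 2 to 18 months by the edgeR quasi-likelihood test with Benjamini-Hochberg adjustment, and 49 had an unadjusted p under 0.05. The genes that fell outside the rule were Col4a2, Vwa1, Sox18, Dab2 and Vcam1, of which the leading pair encode basement membrane proteins. The genes that rose were Il33, Meg3, Ctss, Hmgb2 and Snhg11. The sixth that fell, Itm2a, is an endothelial gene the rule held down, so its change is only listed.

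Col4a2, on chromosome 8 at 11312805-11449287 (GRCm38, plus strand), was at 17.9 and 14.7 per 10000 in young pericytes and at 7.13 and 9.12 in aged ones. The ages did not overlap, and the log2 fold change was -0.96 ± 0.19 (SE, adjusted p = 0.000235 by edgeR). Over 17 other settings the change ranged from -1.12 to -0.83 and passed the threshold in 14, missing it without Aged 1 (-0.83, adjusted p = 0.0544 by edgeR), in the striatal zone alone (-1.09, 0.432) and without mixed cells (-0.89, 0.189). Mixed cells are those with at least 3 markers of another class. In endothelial cells Col4a2 was at 15.3 and 11.8 in young against 7.37 and 9.49 in aged sections, a log2 change of -0.65 that did not pass there (adjusted p = 0.398 by edgeR).

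Vwa1, on chromosome 4 at 155768149-155774698 (GRCm38, minus strand), was at 25.5 and 19.8 per 10000 in young against 9.98 and 13.9 in aged pericytes, with no overlap and a log2 change of -0.88 ± 0.18 (adjusted p = 0.000235 by edgeR). It missed the threshold without Young 1 (-0.71, adjusted p = 0.0632 by edgeR) and without Aged 1 (-0.70, 0.103). Sox18 was at 16.7, 12.3, 5.99 and 10.2 per 10000 in Young 1, Young 2, Aged 1 and Aged 2 (log2 change -0.80, adjusted p = 0.00338 by edgeR) and fell short without Young 1, Young 2 or Aged 1. Vwa1 and Sox18 were both higher in endothelial cells than in pericytes, and the summed endothelial markers inside pericytes were also lower with age, from 879 and 786 to 733 and 742 per 10000. That sum includes 4 genes the rule held down, and the 17 others summed to 684 and 596 per 10000 in young against 578 and 580 in aged pericytes. The part of that shift in these genes was not tested, though without mixed cells the change was -1.06 for Vwa1 and -0.19 for Sox18 (adjusted p = 0.189 and 0.947 by edgeR). Sox18 is itself among the endothelial markers that define mixed cells, so its value there is partly set by the removal. Dab2, an endocytic adaptor, was at 10.7 and 9.46 in young against 5.61 and 5.88 in aged pericytes (log2 change -0.77, adjusted p = 0.0145 by edgeR), short of the threshold whichever section was left out. Vcam1, the vascular cell adhesion molecule, was at 15.01 and 18.5 in young against 12.1 and 9.06 in aged pericytes (-0.62, adjusted p = 0.0292 by edgeR), and missed it without Young 2, Aged 1 or Aged 2.

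Among the genes that rose, Il33, an alarmin cytokine known from oligodendrocytes and astrocytes, was at 14.3 and 14.7 per 10000 in young against 25.4 and 21.4 in aged pericytes (log2 change 0.74 ± 0.18, adjusted p = 0.00338 by edgeR). Ctss, a lysosomal protease of microglia, was at 9.13 and 10.7 in young against 18.9 and 13.3 in aged pericytes (0.74, adjusted p = 0.00459 by edgeR). Hmgb2, a chromatin protein, was at 1.44 and 1.33 in young against 4.11 and 1.92 in aged pericytes, so that Aged 1 carried most of its log2 change of 1.16 (adjusted p = 0.0145 by edgeR; 0.48 without Aged 1). Each of these 3 genes missed the threshold without Young 1, without Young 2 and without Aged 1. The neuronal RNAs Meg3 and Snhg11 rose by 0.69 and 0.60 on the log2 scale (adjusted p = 0.00338 and 0.0148 by edgeR), with Meg3 at 36.4 and 25.9 in young against 51.1 and 46.2 in aged pericytes. Both missed the threshold without Young 2 or Aged 1, and Snhg11 also without Young 1. Neuron markers as a whole, which include both, moved the same way inside pericytes, from 210 and 201 to 267 and 253 per 10000. When pericytes with at least 3 markers of a neuron or glia class were left out, Meg3 stood at -0.19 and Snhg11 at 0.08 (adjusted p = 0.746 and 0.894 by edgeR). Il33 was then at 0.46 (adjusted p = 0.442 by edgeR), and at 0.40 without mixed cells (0.698), while Ctss was at 0.81 and Hmgb2 at 1.18 (0.143 and 0.0558). Meg3, Snhg11 and Ctss are themselves among the markers that decided which cells were left out. Their values after the removal are partly set by it and cannot show where the transcripts came from.

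**Figure D4:**
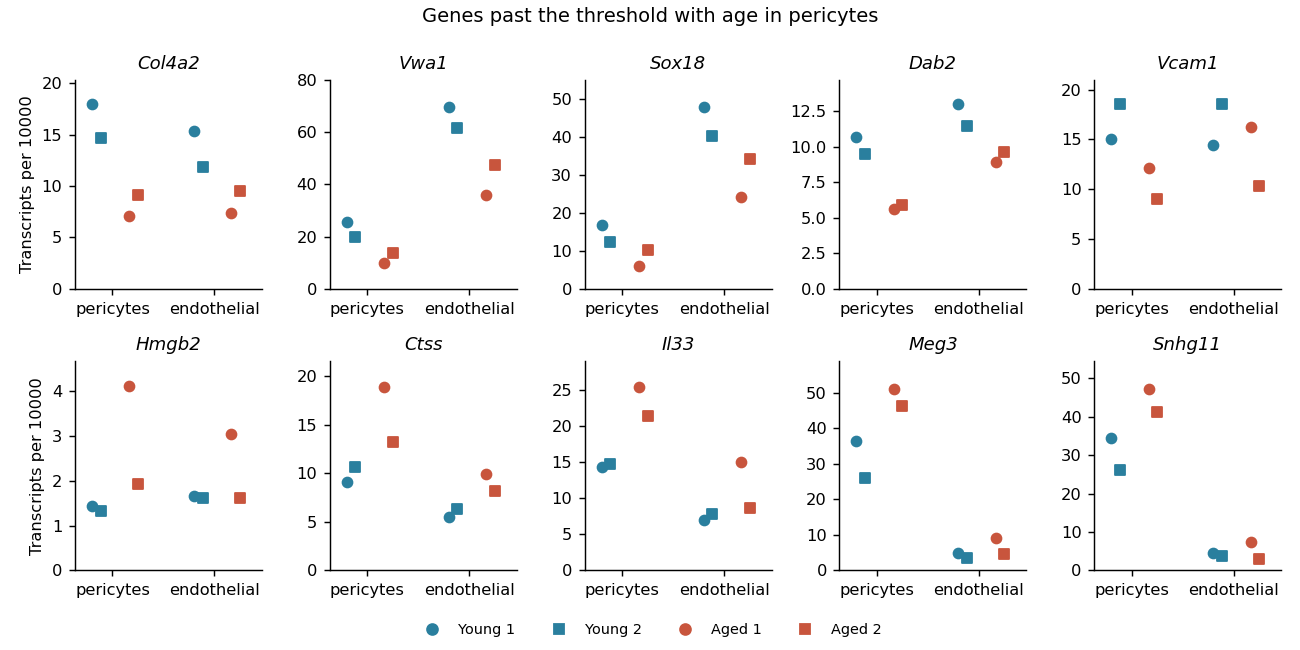
Level (transcripts per 10000) of the 10 genes outside the rule that passed the threshold with age in pericytes, in pericytes and in endothelial cells of each section. Blue points are young and red points aged sections. In pericytes the ages do not overlap for any of the 10 genes, and in endothelial cells none of them passed. Passing in a single class is not a difference between classes. In the test of that difference Vwa1 and Dab2 passed and the others did not.

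The number of calls depended on single sections and on which cells were kept. Without Young 1 there were 4 calls, without Young 2 there were 2, without Aged 1 there were 0 of 383 genes tested by edgeR (30 at an unadjusted p under 0.05) and without Aged 2 there were 16, where the lone section of an age is assumed to vary like the other age. Without mixed cells, 403 of 1749 and 417 of 1666 young pericytes remained, against 539 of 1465 and 499 of 1659 aged ones. This removal rests on raw counts and was thus not equal between sections, with the most cells kept in the shallowest, Aged 1. It left 0 calls of 301 genes (30 unadjusted), and the striatal zone alone left 0 of 360 (21 unadjusted). In endothelial cells 0 of 383 genes passed with age by edgeR (0.00%, 30 unadjusted).

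The pathway lists behaved as follows with age, given as counts beside those of all 373 tested genes outside the rule, of which 5 rose and 5 fell with a median log2 change of 0.02. In the PDGF list, Pdgfa (-0.15), Pdgfb (-0.46) and Pdgfra (-0.24) all lay below 0 and none passed. In the contractile list 0 of 10 passed and the median was 0.04, with Actn1 at -0.60 (adjusted p = 0.0819 by edgeR), Ano1 at 0.42 and Cald1 at 0.07. In the matrix list 2 of 17, Col4a2 and Vwa1, fell and the median was -0.14. Fn1 in it was at 63.3 and 60.3 in young against 42.7 and 43.1 in aged pericytes (-0.48, adjusted p = 0.0937 by edgeR), while Timp3, a metalloproteinase inhibitor, was at 187 and 191 against 232 and 202 (0.25). None of 7 TGF-beta and BMP genes (median 0.08) or 6 G protein signal genes (median -0.01) passed, nor did any of 16 MHC class I and interferon genes (median -0.18), 7 complement genes (-0.06), 10 cell cycle arrest and cell death genes (0.02) or 10 sirtuin and NAD genes (-0.25). Of 22 cytokine, chemokine and NF-kB genes, Il33 rose and Vcam1 fell (median -0.12). Marker lists of other classes had medians of -0.10 for 17 endothelial, -0.40 for 4 arterial endothelial, -0.45 for 5 fibroblast, 0.28 for 6 neuron, 0.10 for 8 medium spiny neuron, 0.15 for 8 astrocyte, 0.15 for 6 oligodendrocyte, 0.02 for 5 oligodendrocyte precursor and -0.10 for 11 microglia and macrophage genes, and the red blood cell gene Alas2 was at -0.35.

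Whether pericytes and endothelial cells aged differently was tested as the difference between their changes, with the section as a block. Of 383 genes, 42 passed (11.0%), 9 with a higher (2.35%) and 33 with a lower change in pericytes (8.62%), and 74 had an unadjusted p under 0.05. These counts include 6 genes of the rule, and of the 374 genes outside it 7 had a higher and 29 a lower change, with a median difference of -0.04. In the PDGF list both ligands passed. Pdgfb was lower by 0.46 in pericytes and by 0.03 in endothelial cells on the log2 scale, a difference of -0.46 ± 0.09 (SE, adjusted p = 0.00221 by edgeR), and Pdgfa differed by -0.51 (adjusted p = 0.0321 by edgeR). In the matrix list 5 of 17 passed, all with a lower change in pericytes than in endothelial cells, which need not be a fall. Itih5, a hyaluronan-binding inhibitor subunit, differed most, by -0.51 (adjusted p = 0.000266 by edgeR), followed by Timp3 (-0.39), Vwa1 (-0.30), Itga1 (-0.28) and Fn1 (-0.27). Itih5 changed by -0.18 in pericytes and by 0.30 in endothelial cells, and Timp3 was at 0.25 in pericytes. The BMP target Id3 (-0.47), the filament gene Vim (-0.38) and Dab2 (-0.45) also had a lower change in pericytes, and Rgs4 a higher one, by 0.42 (adjusted p = 0.00571 by edgeR). Rgs4 was at 136 and 188 per 10000 in young against 186 and 198 in aged pericytes, so that its own ages overlapped, and at 14.6 and 22.7 against 14.2 and 17.6 in endothelial cells. Of the genes outside the rule called with age in pericytes, only Vwa1 and Dab2 differed past the threshold in their change from endothelial cells. Col4a2 and the others did not. Markers of other vascular cells also differed. Of 4 arterial endothelial markers 3 had a lower change in pericytes (median -0.83), of 5 fibroblast markers 2 (median -0.42) and of 17 endothelial markers outside the rule 4 (median -0.17). The genes behind the first counts, named after their values were seen, were Bmx (-0.999), the endothelin gene Edn1 (-0.86) and Gkn3 (-0.79) among the arterial markers, and Inmt (-0.95) and Fn1 among the fibroblast markers. The arterial markers summed to 30.9 and 24.9 per 10000 in young against 17.6 and 23.1 in aged pericytes, and the fibroblast markers to 100.3 and 88.2 against 67.3 and 69.6. The part of these cells in the differences above was not tested.

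**Figure D5:**
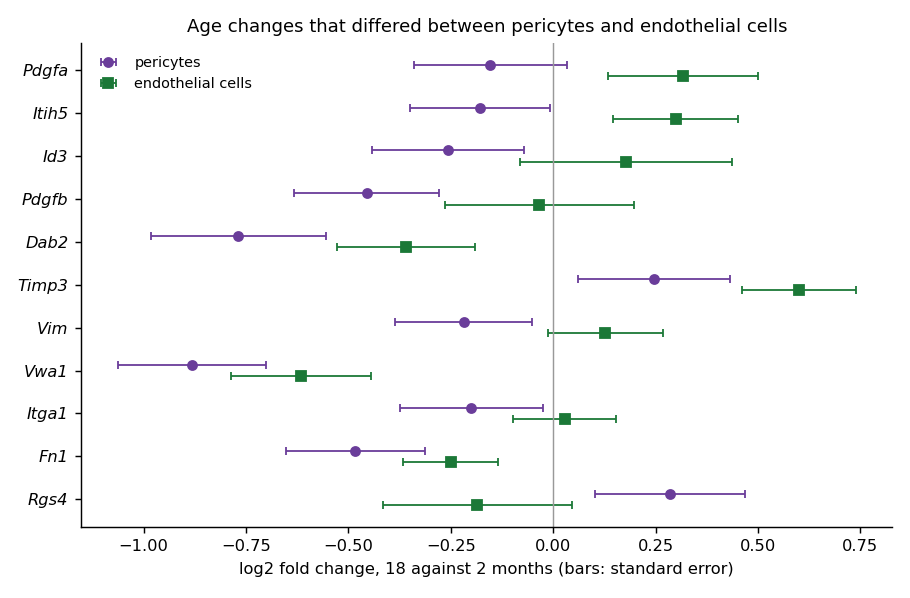
Log2 fold change from 2 to 18 months (x axis, bars: standard error) in pericytes and in endothelial cells for 11 genes whose changes differed between the classes. Rgs4 is the gene with the higher change in pericytes, and the other 10 have the lower one.

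Itih5 and Rgs4 passed whichever section was left out, while Timp3 missed the threshold without Young 2, Vim without Young 1 or Young 2, and Pdgfb without Young 2 or Aged 2. Pdgfa, Id3, Itga1 and Dab2 missed it without Young 1, Young 2 or Aged 2, and Vwa1 and Fn1 whichever section was left out. Edn1 passed whichever section was left out, Bmx missed it without Young 1, Inmt without Young 1 or Young 2, and Gkn3 without Young 1, Young 2 or Aged 2. Without Young 1 there were 9 calls, without Young 2 there were 13 and without Aged 2 there were 19, against 42 without Aged 1. Without mixed cells 0 of 362 genes passed by edgeR (30 unadjusted), with Pdgfb then at -0.01, Bmx at 0.31 and Edn1 at 0.35.

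The surroundings of a pericyte also varied within a section. A cell was put in the striatal zone where at least 40% of cells within 150 µm had 3 or more medium spiny neuron markers, and in the white matter zone by the same share of oligodendrocyte marker cells. Pericytes were sparser in white matter, at 33.3, 20.6, 18.0 and 29.2 per mm² in Young 1, Young 2, Aged 1 and Aged 2 against 45.8, 34.8, 35.8 and 40.8 in the striatal zone. White matter was lower in 4 of 4 sections, 25.3 ± 7.18 against 39.3 ± 5.05 per mm² (SD, n = 4; exact permutation test within sections, p = 0.125, the smallest possible), and so was the share of cells, 1.55% ± 0.337 against 2.00% ± 0.123 (exact p = 0.125). Endothelial cells per pericyte were close, at 1.62 ± 0.270 in white matter and 1.66 ± 0.276 in the striatal zone (exact permutation p = 0.25). The lower density was thus not particular to pericytes.

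Of 342 genes tested between the zones in pericytes, 88 passed by edgeR (25.7%), 47 as higher and 41 as lower in white matter, the latter with Acta2 of the rule among them. Most of the leading genes are known from other cell types. Thbs4, Gfap, Top2a, Cldn11, Opalin, Tspan2, Mag and Slain1 led the higher genes, with Gfap at 142 ± 30.5 per 10000 in white matter and 11.1 ± 3.24 in the striatal zone, and all 6 oligodendrocyte markers passed. Ptpn5, Crym, Arpp21, Tmem158, Penk, Tesc and Scn4b were among the leading lower ones, and 7 of 8 medium spiny neuron markers passed. Both marker lists also set the zones through the cells around a pericyte. Their difference in other cells thus follows from the definition, and that in pericytes is not independent of it. Gfap, which did not set the zones, differed by 4.30 on the log2 scale in all other cells against 3.82 in pericytes.

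Among the pathway genes, the matrix gene Thbs4 was higher in white matter by 5.47 on the log2 scale and the striatal gene Rgs9, of the G protein list, lower by 2.86. Rgs9 is also among the medium spiny neuron markers that set the zones. Igfbp5, which encodes a matrix-bound carrier of insulin-like growth factors, was at 64.3, 56.5, 47.8 and 54.3 per 10000 in white matter pericytes and 9.62, 11.3, 9.09 and 11.9 in striatal ones, a log2 difference of 2.54 ± 0.18 (adjusted p = 9.04e-07 by edgeR). It was 2.45 without mixed cells, yet 2.37 in endothelial cells and 3.08 in other cells, so the difference was not particular to pericytes. The intermediate filament gene Synm was higher by 0.52 (adjusted p = 0.0449 by edgeR) and missed the threshold whichever section was left out. Sorbs2, a cytoskeletal adaptor, was lower by 0.91 (adjusted p = 0.0136 by edgeR) and missed it without Aged 1. Acta2, which the rule held down, was at 47.8, 39.3, 23.1 and 44.6 in striatal and 24.4, 3.93, 10.9 and 5.16 in white matter pericytes, given without a test. In contrast, Cald1 and Ano1 did not pass between the zones.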

How the data were processed

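Per the labels and the study's methods, the authors hybridized the sections with a custom MERFISH probe set, and used MERLIN for decoding and Vizgen software for segmentation. The deposited count of a gene is that of its decoded molecules in a cell, not normalized, and the authors also deposited each cell's volume, an imaging signal in µm³, and its position. The authors' table of mean counts per section was not used. The members, gene lists and named genes were chosen with earlier results of these data known, by rules on fold change and threshold.

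Endothelial and smooth muscle cells were taken by the mirror of the pericyte rule. Counts were summed per section and class, and fitted with edgeR 4.0.16 in R 4.3.3, using TMM factors, the filterByExpr filter and the quasi-likelihood test. Genes with a Benjamini-Hochberg adjusted p under 0.05 were called. DESeq2 1.42.0 and limma-voom 3.58.1 were alternatives. Kept cells held 18765491 to 36035355 transcripts per section, and pericytes 340724 to 632205. Areas came from 50 µm squares with a kept cell. Two-sided exact permutation tests over sections served for shares and distances (scipy 1.17.1). The fits were tested on simulated counts with known changes.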

Additional observations from a re-analysis of the deposited data

Results flagged for a closer look

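For 10 genes of the pathway lists and for Dab2 the change with age differed between pericytes and endothelial cells by the interaction term of the edgeR fit. The change in pericytes minus that in endothelial cells, on the log2 scale, was 0.42 for Rgs4, -0.39 for Timp3, -0.47 for Id3, -0.51 for Pdgfa, -0.38 for Vim, -0.30 for Vwa1, -0.46 for Pdgfb, -0.51 for Itih5, -0.27 for Fn1, -0.28 for Itga1 and -0.45 for Dab2. Over 8 other settings each of these kept its sign. Itih5 passed the threshold in 7 of the 8 (-0.81 to -0.39), Rgs4 and Timp3 in 6, Vim and Pdgfb in 5, Id3, Pdgfa and Itga1 in 4, Fn1 and Dab2 in 3 and Vwa1 in 1. Among markers of arterial endothelium and fibroblasts, chosen after their values were seen, the difference was -0.999 for Bmx, -0.86 for Edn1, -0.79 for Gkn3 and -0.95 for Inmt. Edn1 passed in 7 of 8 settings, Bmx in 6 and Gkn3 and Inmt in 4, and Bmx and Edn1 turned sign without mixed cells.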

How the results depend on the processing

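With age in pericytes, 8 of 17 alternatives kept the number of genes that rose (5) within 1.5 times, and 10 of 17 the number that fell (6). DESeq2 gave 2 higher genes, and cells thinned to 150 transcripts gave 2. A rule share of 8% gave 0 higher and 1 lower, the striatal zone alone gave 0 and 0, and leaving out mixed cells gave 0 and 0, with Meg3 at -0.14 and Snhg11 at -0.15. Leaving out cells with neuron or glia markers, an alternative chosen after the data were seen, gave 0 higher and 3 lower genes and Meg3 at -0.19. Meg3 and Snhg11 are among the markers used in both removals. Without a section, 0 to 7 genes were higher and 0 to 9 lower. The replicate number did not pair the sections (correlation of deviations 0.05 over 382 genes), and with it as a block 12 genes were called, 11 of them shared. The difference of age changes gave 9 to 42 genes without a section and 0 without mixed cells, with Bmx at 0.31 and Edn1 at 0.35. The zone comparison gave 6 higher and 18 lower genes without mixed cells, with fewer genes tested (155), and otherwise kept both counts within 1.5 times. Aged minus young, the share of pericytes was -0.562 percentage points with all 3 markers and -0.0686 in the striatal zone, against -0.281. Endothelial cells per pericyte differed by -0.444 at a share of 8%, -0.437 in the striatal zone and 0.161 with all 3 markers, against -0.327. The distance to the nearest endothelial cell differed by 11.2 µm in thinned cells, against 7.12 µm. The cause of these shifts, including the effect of fewer cells or genes, was not tested. The comparison of pericytes with endothelial cells kept both counts within 1.5 times in 9 of 9 alternatives. Depth limits the age comparison most in Aged 1, whose pericytes held the fewest transcripts, and 2 sections per age leave little to estimate the spread from.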
